A study of Homo sapiens with 5 samples.

Results

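The genes described here are MYC, its partners and antagonists in the MAX network, and non-coding RNAs of the same chromosome band, 8q24. The 9 members are MYC, PVT1, AC084116.4, MYCL, MAX, MXD1, MXD4, MXI1 and MNT. They were found by symbol among the 37181 entries of an expression table, and for a symbol with several entries the entry with the highest mean over the 5 libraries was taken. Of the 9, 8 passed a minimum mean of 0.5 FPKM (fragments scaled to transcript length and to the size of the library) and MYCL did not. The members were selected on the FPKM values of these same libraries, the drop of AC084116.4 in HCC827/GR among them, so their values are given as a description with no test.

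The libraries came from HCC827, a human lung adenocarcinoma cell line with a deletion in exon 19 of EGFR, and both groups stem from this line. HCC827/GR cells are gefitinib resistant and were derived from the parental line under gradually rising doses of this EGFR inhibitor over more than 6 months. The other group is gefitinib-sensitive parental HCC827. There were 3 HCC827/GR libraries (replicates 1, 2 and 3) and 2 HCC827 libraries (replicates 2 and 3). Nothing in the labels says that they came from separate cultures, so their spread may be technical, and a single resistant line stands for resistance. The table gives no read counts, so the depth is unknown.

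MYC is a transcription factor that binds DNA as a dimer with MAX, most often at the E-box CACGTG, and raises expression of genes for ribosome production, metabolism and the cell cycle. MXD1, MXD4, MXI1 and MNT also pair with MAX, bind the same sites and recruit corepressors, so that they oppose MYC. PVT1 is a long non-coding RNA gene that lies next to MYC and is often gained together with it in tumours.

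The E-box is the sequence on which these factors meet, and the windows below show it in the promoters of the members that hold it and of a few targets. In RefSeq promoters on GRCh38.p14, taken from 250 bases before to 50 bases after the start site, 6 of the 9 members had a sequence. CACGTG, which reads the same on both strands, was found in 2 of them, MXD4 and MNT, and not in the windows of MYCL, MAX, MXD1 and MXI1. Each stretch below is 30 bases long and is written 5′ to 3′ on the strand of its gene, with the E-box in capitals.
MXD4: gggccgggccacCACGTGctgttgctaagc
MNT: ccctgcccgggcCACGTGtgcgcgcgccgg
ODC1: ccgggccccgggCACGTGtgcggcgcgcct
CDK4: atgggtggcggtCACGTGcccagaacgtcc
ARRDC4: aaacggcctgtgCACGTGcacgccggagcc
The MXD4 stretch lies at chr4:2262330-2262359 and the MNT stretch at chr17:2401236-2401265, both on the minus strand. The ODC1 stretch at chr2:10448024-10448053 and the CDK4 stretch at chr12:57752394-57752423 are also on the minus strand, and the ARRDC4 stretch at chr15:97960481-97960510 is on the plus strand. The same search of the TXNIP, NCL and NPM1 promoters found no match. The CDK4 window held 3 such motifs and the ODC1 window 2, of which 1 each is shown. Over all 35116 promoters, 7.26% held the motif. Among the promoters of 8660 protein-coding genes measured here the share was 9.91%. A match describes the letters only and is no evidence of binding.

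MYC RNA was somewhat higher in HCC827/GR than in HCC827, and the RNA of its neighbour PVT1 was somewhat lower. AC084116.4, a transcript upstream of MYC, was far lower in HCC827/GR. MAX was slightly higher, while MXD1, MXD4, MXI1 and MNT overlapped between the groups. In 5 of the 9 members (MYC, PVT1, AC084116.4, MYCL and MAX) the 2 groups did not overlap. With 5 libraries this is common: the groups did not overlap in 46.3% of the 16189 entries tested, 22.8% with HCC827/GR higher and 23.4% with it lower. Fold changes below are differences of log2(FPKM + 1) between the group means, HCC827/GR minus HCC827, with the standard error (SE) from limma, and they understate the change of genes with a low level.

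MYC (chr8:127735434-127741434, plus strand) was at 7.76, 6.59 and 8.34 FPKM in replicates 1, 2 and 3 of HCC827/GR. In replicates 2 and 3 of HCC827 it was at 4.34 and 6.05 FPKM. All 3 HCC827/GR libraries lay above both HCC827 libraries, but the lowest of the former and the higher of the latter were close. The mean level was 7.56 ± 0.893 FPKM (SD, n = 3) against 5.20 ± 1.21 FPKM (SD, n = 2), a ratio of 1.46. The log2 fold change was 0.48 with an SE of 0.17. It was 0.27 without HCC827 replicate 2 and 0.68 without HCC827 replicate 3, so the size depended on which parental library was kept. In the single libraries MYC exceeded between 63.6% and 79.0% of the entries tested, which places it above the middle of the measured genes in both lines. In bulk samples, fewer cells that express a gene and less RNA of it per cell cannot be told apart.

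MYCL, the family member that takes its name from lung cancer, was near the bottom of the range. Its gene is at chr1:39895426-39902256 on the minus strand. The level was 0.112, 0.0194 and 0.0192 FPKM in HCC827/GR and 0.232 and 0.595 FPKM in HCC827. The HCC827/GR values were all below the HCC827 values, and a single parental library was above 0.5 FPKM. No fold change was fitted because the mean was under the minimum.

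MAX is the partner that MYC and its antagonists share, and it is encoded at chr14:65006174-65102695 on the minus strand. It had 2.65, 2.89 and 2.75 FPKM in HCC827/GR and 1.82 and 2.54 FPKM in HCC827. The 3 HCC827/GR libraries were close to each other and above both parental ones, the nearer of which was 2.54 FPKM. The log2 fold change was 0.25 with an SE of 0.13, and it was 0.09 without HCC827 replicate 2. The ratio of MYC to MAX was 2.92, 2.28 and 3.03 in HCC827/GR and 2.38 and 2.39 in HCC827. These ratios overlapped between the groups.

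**Figure D1:**
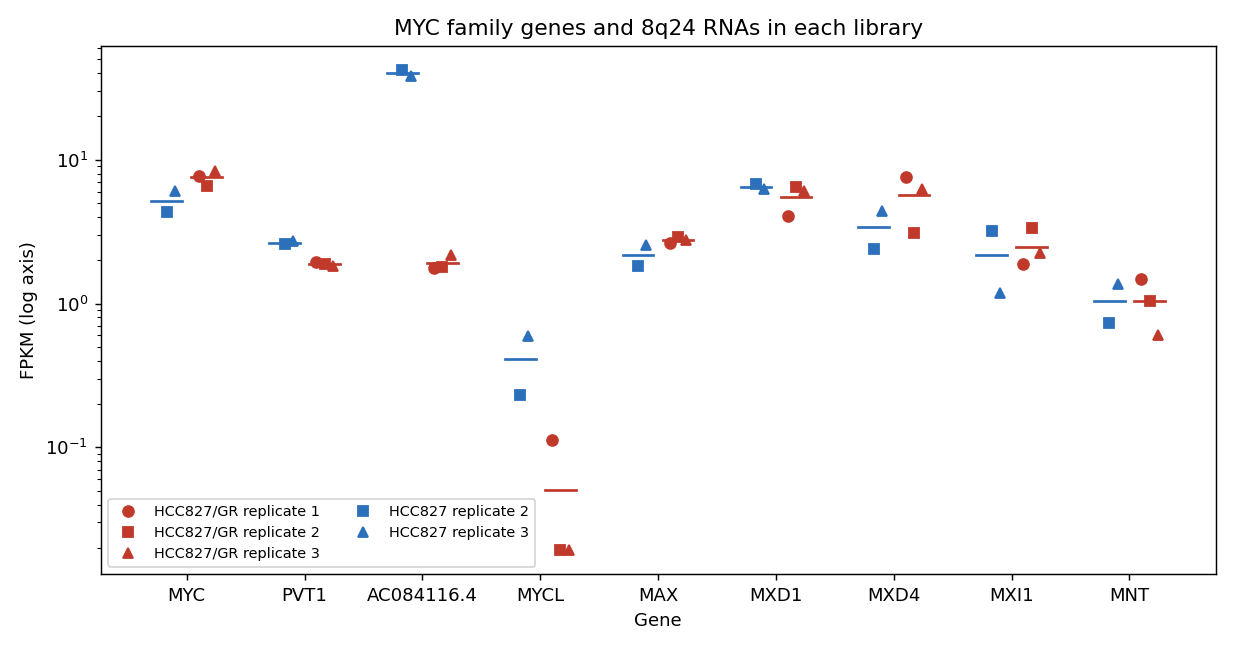
FPKM (log axis) of the 9 members in each library, with HCC827/GR and HCC827 shown separately; points are libraries and bars are group means. AC084116.4 was at 38.2 and 42.1 FPKM in HCC827, above every other member, and at 1.76 to 2.19 FPKM in HCC827/GR.

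The 4 antagonists differed in level and varied strongly between libraries of the same line. MXD1 (chr2:69897688-69942945, plus strand) had 4.04, 6.47 and 6.04 FPKM in HCC827/GR and 6.79 and 6.23 FPKM in HCC827. Replicate 1 of HCC827/GR was low and replicate 2 lay between the parental values, with a log2 fold change of -0.22 and an SE of 0.20. Without that replicate 1 it was -0.05. Its entry also joins transcripts of SNRNP27, a neighbouring gene of the spliceosome, so the reads of these genes cannot be told apart.

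MXD4 (chr4:2247432-2262294, minus strand) had 7.63, 3.11 and 6.23 FPKM in HCC827/GR and 2.38 and 4.40 FPKM in HCC827. It had the widest spread in HCC827/GR among the antagonists, from 3.11 to 7.63 FPKM, and the groups overlapped. The log2 fold change of 0.57 was larger than that of MYC, but its SE was 0.39. It was 0.24 without HCC827 replicate 2 and 0.91 without HCC827 replicate 3.

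MXI1 (chr10:110207605-110287365, plus strand) had 1.87, 3.34 and 2.23 FPKM in HCC827/GR and 3.20 and 1.18 FPKM in HCC827. The parental libraries lay on either side of replicates 1 and 3 of HCC827/GR. The log2 fold change was 0.18 with an SE of 0.34, and it was -0.29 without HCC827 replicate 3.

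MNT, the antagonist found in growing as well as resting cells, is at chr17:2384060-2401118 on the minus strand. It had 1.49, 1.04 and 0.602 FPKM in HCC827/GR and 0.727 and 1.37 FPKM in HCC827. The groups overlapped fully, with a log2 fold change of -0.01 and an SE of 0.25. It was -0.24 without HCC827 replicate 2 and 0.28 under Ballgown's model, so no direction can be given.

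Added together, MXD1, MXD4, MXI1 and MNT had 14.7 ± 0.636 FPKM in HCC827/GR (SD, n = 3) and 13.1 ± 0.0545 FPKM in HCC827 (SD, n = 2). Relative to MYC this sum was 1.94, 2.12 and 1.81 in the HCC827/GR libraries and 3.02 and 2.18 in the HCC827 libraries. Every HCC827/GR ratio was below both HCC827 ratios, by a narrow margin for HCC827/GR replicate 2 and HCC827 replicate 3. The MXD1 entry, which holds reads of SNRNP27 as well, made up 26.9% to 51.9% of the sum. Without it the ratio was 1.42, 1.14 and 1.09 in HCC827/GR and 1.45 and 1.15 in HCC827, and the groups overlapped. These are sums of RNA levels and say nothing of protein.

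**Figure D2:**
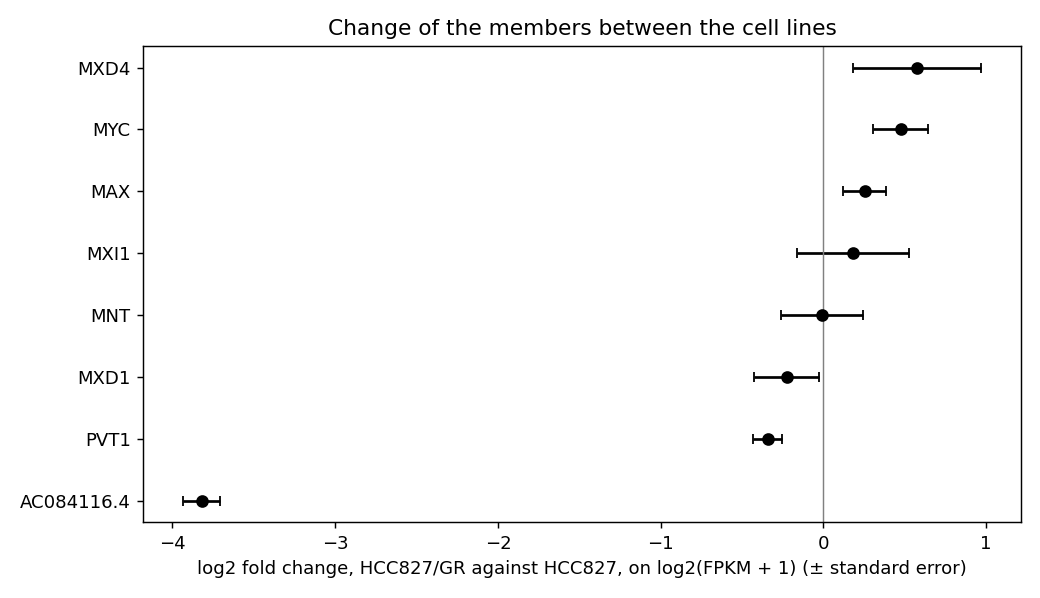
Log2 fold change of each fitted member (HCC827/GR minus HCC827, on the log2(FPKM + 1) scale), with the SE as bars. AC084116.4 stood at -3.82 and the other members lay between -0.34 and 0.57.

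The order of the levels differed between the lines. In HCC827/GR the order by mean was MYC, MXD4, MXD1, MAX, MXI1, AC084116.4, PVT1, MNT and MYCL. Neighbours in this order overlapped in their libraries except MXD1 and MAX, PVT1 and MNT, and MNT and MYCL. In HCC827 the order was AC084116.4, MXD1, MYC, MXD4, PVT1, MXI1, MAX, MNT and MYCL. There AC084116.4 was apart from MXD1, MXD1 from MYC, MAX from MNT and MNT from MYCL, and the others overlapped their neighbours.

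PVT1 (chr8:127794533-128101253, plus strand, a lincRNA) was represented by 7 entries, of which 1 holds Ensembl transcripts and the others are assembled loci that carry the symbol. The entry with the highest mean had 1.94, 1.89 and 1.81 FPKM in HCC827/GR and 2.59 and 2.70 FPKM in HCC827. The libraries of each line were close together and the lines were apart, with a log2 fold change of -0.34 and an SE of 0.09.

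The annotated PVT1 entry, which joins 12 transcripts, had 1.61, 1.59 and 1.30 FPKM in HCC827/GR and 1.87 and 2.30 FPKM in HCC827. It was lower in every HCC827/GR library as well. Of the 7 entries 5 were apart and lower in HCC827/GR, and the other 2 overlapped. The fitted log2 fold changes of the 7 ran from -0.42 to -0.22. The entries lie in the same gene and are not separate replicates of its change. The ratio of PVT1 to MYC was 0.249, 0.287 and 0.217 in HCC827/GR and 0.597 and 0.447 in HCC827. These ratios did not overlap, as MYC was higher and PVT1 lower in HCC827/GR.

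**Figure D3:**
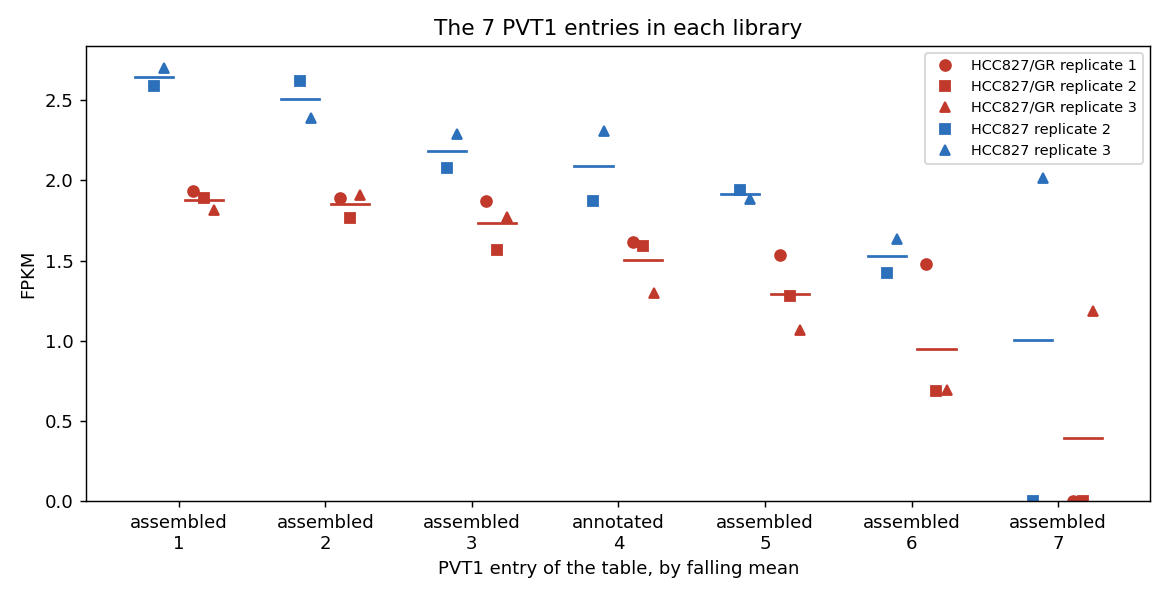
FPKM of the 7 PVT1 entries in each library; points are libraries of HCC827/GR and HCC827. In 5 entries all HCC827/GR points lie below the HCC827 points, and in 2 entries the groups overlap.

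AC084116.4 showed the largest difference among the members. It had 1.76, 1.79 and 2.19 FPKM in HCC827/GR and 42.1 and 38.2 FPKM in HCC827. The means were 1.92 ± 0.240 FPKM (SD, n = 3) and 40.1 ± 2.78 FPKM (SD, n = 2), a ratio of 0.0477. The log2 fold change was -3.82 with an SE of 0.11, and it stayed between -4.32 and -3.75 under the alternatives tried. It exceeded 38.2% to 46.3% of the entries tested in the HCC827/GR libraries, against 96.8% to 97.4% in the HCC827 libraries.

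The only transcript of this entry lies at chr8:126556323-126557769 on the plus strand, and GENCODE release 29 assigns it to PCAT1, an antisense non-coding RNA gene. Its end is 1177665 bases before the start of MYC. The 2 exons of the transcript cover 1393 bases, of which 1109 lie inside exons of FAM84B, a protein-coding gene on the opposite strand (chr8:126552442-126558393). The strand of the reads is not given in the sources used here, so reads of AC084116.4 and FAM84B cannot be told apart.

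FAM84B had 3.59, 4.61 and 3.59 FPKM in HCC827/GR and 70.2 and 59.5 FPKM in HCC827. The log2 fold change was -3.74 with an SE of 0.14. No p is given, since this is largely the signal for which AC084116.4 was chosen. The ratio of AC084116.4 to FAM84B was 0.491, 0.388 and 0.610 in HCC827/GR and 0.600 and 0.642 in HCC827, and these values overlapped. The PCAT1 entry with the highest mean among those outside this transcript was listed at 0.437, 0.190 and 0.332 FPKM in HCC827/GR and at 0.589 and 0.346 FPKM in HCC827. It overlapped between the lines and was too low to be tested. The low level in HCC827/GR was thus seen in an entry that mostly overlaps FAM84B.

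The genes around MYC were compared to see whether other genes near the members also differed. Within 5 Mb of the start of MYC there were 94 annotated genes besides the members, of which 40 could be tested. At an adjusted p under 0.05, 13 of the 40 (32.5%) were lower in HCC827/GR and none was higher. Over all 16189 entries tested, 5.71% were lower and 5.26% were higher. The 13 include FAM84B, which shares its signal with AC084116.4, and without it 12 of 39 (30.8%) were lower. At an unadjusted p under 0.05, limma gave 15 lower and 1 higher, beside 13.8% and 13.4% of all entries. Ballgown's model gave 15 of the 40 at its unadjusted p under 0.05, for which the share of all entries is not given here. It gave none at an adjusted p under 0.05, which only 15 of all 16189 entries passed. By a fold change of 2 or more with an unadjusted p under 0.05, 10 of the 40 were lower and none higher, beside 3.97% and 2.96% of all entries. Without FAM84B, 9 of 39 were lower by this rule. The median log2 fold change of the 40 was -0.24, beside 0.00 for all entries tested (0.00143 before rounding), and it was -0.15 without HCC827/GR replicate 1. The 24 protein-coding neighbours had a median of -0.01 with 7 lower, FAM84B among them, and the 16 others a median of -0.50 with 6 lower. Of the protein-coding genes of chromosome 8 outside this window 353 were tested, of which 31 (8.78%) were lower and 17 (4.82%) higher, with a median of 0.04. Genes that overlap or lie side by side are not independent of each other.

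**Figure D4:**
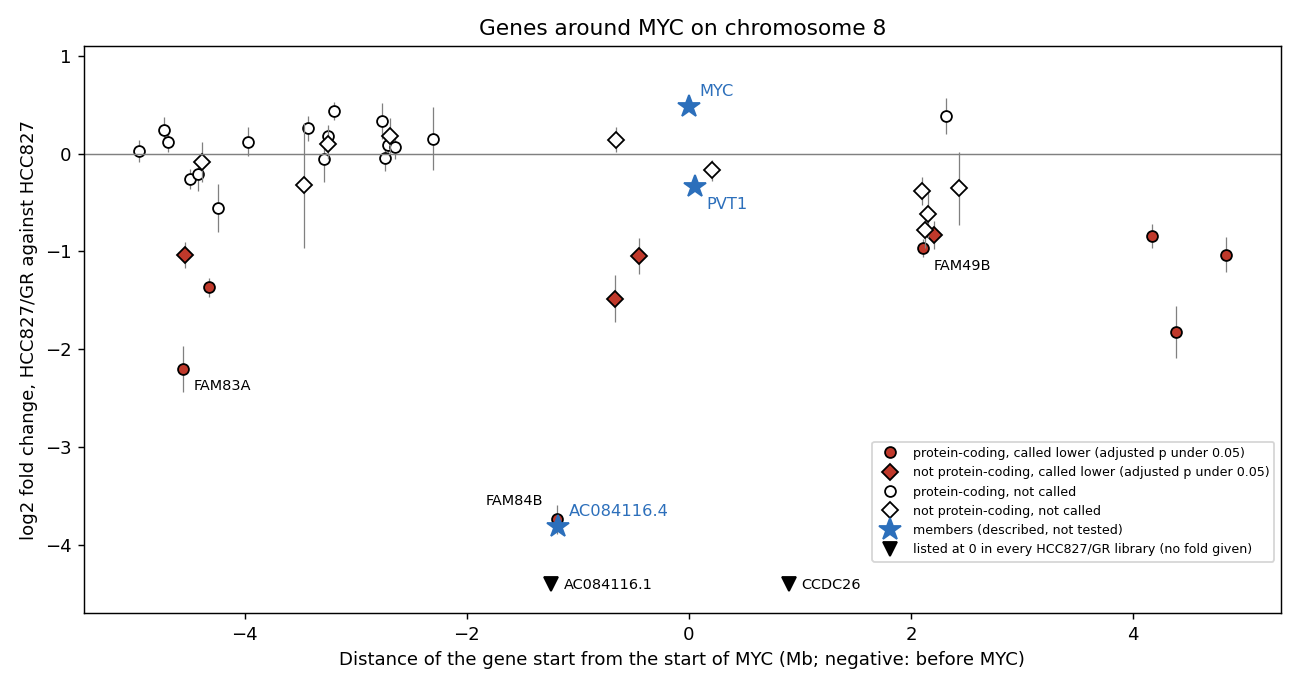
Log2 fold change (HCC827/GR minus HCC827, SE as bars) of the tested genes within 5 Mb of the start of MYC, by distance of the gene start in Mb. Filled points passed an adjusted p under 0.05. FAM84B is drawn among them but shares its signal with AC084116.4, so it is no separate result. Triangles at the bottom edge mark CCDC26 and AC084116.1, which also passed, were listed at 0 in HCC827/GR and have no fold; all 13 genes that passed were lower.

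The tested non-coding neighbours included 2 genes listed at 0 in every HCC827/GR library. Several neighbours too low to be tested were also at 0 there. Of these AC103726.2, AC087341.1 and AC104257.1 were above 0 in both HCC827 libraries, while others, such as LINC00861, were at 0 in those as well. CCDC26, a lincRNA gene 0.899 Mb after the start of MYC, was listed at 0 in all 3 and at 5.56 and 3.05 FPKM in HCC827 (adjusted p = 0.0100, limma). All 4 CCDC26 entries were at 0 in HCC827/GR and above 0 in both HCC827 libraries. AC084116.1, a lincRNA gene 1.24 Mb before MYC, was listed at 0 in HCC827/GR and at 2.80 and 3.05 FPKM in HCC827 (adjusted p = 0.00349, limma).

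Closer to MYC, and named here for their position after their values were seen, were CASC19 and CASC8, which lie on the side of AC084116.4. CASC19 had 0.463, 0.598 and 1.35 FPKM in HCC827/GR and 3.63 and 4.25 FPKM in HCC827, and fell by 1.48 on the log2 scale (adjusted p = 0.0277, limma). A second CASC19 entry overlapped between the lines, was at 0 in HCC827 replicate 3 and was not called (adjusted p = 0.609, limma). CASC8 had 0.111, 0.368 and 0.469 FPKM against 1.93 and 1.49 FPKM and fell by 1.05 (adjusted p = 0.0332, limma). PRNCR1, which lies inside the span of CASC19, had 0.568, 0.572 and 0.640 FPKM against 0.434 and 0.452 FPKM and did not pass (adjusted p = 0.543, limma). TMEM75, which lies inside the span of PVT1, had 1.15, 1.01 and 1.17 FPKM against 1.37 and 1.38 FPKM. It did not pass either (adjusted p = 0.373, limma), and its signal may not be separate from that of PVT1.

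Among the protein-coding neighbours FAM83A, which acts in EGFR signalling, had 1.06, 0.356 and 1.17 FPKM in HCC827/GR and 7.26 and 7.53 FPKM in HCC827. It fell by 2.20 on the log2 scale (SE 0.24, adjusted p = 0.0115, limma). FAM49B, chosen after its values were seen, had 9.76, 10.8 and 10.04 FPKM against 21.3 and 20.4 FPKM and fell by 0.97 (adjusted p = 0.00926, limma). These values are of its entry with the highest mean. Most of the other FAM49B entries were not called or too low to be tested. Those with a fold change were below 0, except an entry at 0.18 whose groups overlapped (adjusted p = 0.861, limma). The other protein-coding neighbours called lower, also named after their values were seen, were WDYHV1, KCNQ3, LRRC6 and EFR3A. Their log2 fold changes were -1.37, -1.82, -1.03 and -0.85. That of WDYHV1 (adjusted p = 0.00469, limma) stayed between -1.40 and -1.33 with 1 library left out. Leaving out any 1 library kept the calls of CCDC26, AC084116.1 and FAM49B. FAM83A lost its call without either HCC827 replicate 2 or 3 (adjusted p up to 0.0818), CASC19 in 4 of 5 such cases (adjusted p up to 0.134) and CASC8 in all 5 (0.0625 to 0.132). CASC8 also lost it with a pseudocount of 0.1 (adjusted p = 0.0705, limma), and both lost it with no filter on low values. The count of 13 fell to between 5 and 8 when 1 library was left out, with the lowest count without HCC827 replicate 2.

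None of the other factors of the network passed the test. MXD3, a further MAX-binding antagonist, had a log2 fold change of 0.25 (adjusted p = 0.285, limma). Its 3 HCC827/GR libraries (1.51, 1.29 and 1.12 FPKM) were above both HCC827 libraries (0.957 and 0.918 FPKM). The MXD3 entry joins transcripts of 2 annotated genes, so its reads cannot be credited to MXD3 alone. MGA, a large MAX partner, had 0.19 (adjusted p = 0.393, limma) and ZBTB17, through which MYC represses genes, had 0.18 (adjusted p = 0.313, limma). MLX, the MAX-like partner of the glucose-sensing branch, had -0.14 (adjusted p = 0.696, limma) and MLXIP had -0.11 (adjusted p = 0.817, limma). Without HCC827 replicate 2 they were at 0.13 and 0.12. MLXIPL was below the minimum.

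TXNIP and ARRDC4, the targets of the MLX branch, are arrestin-family genes that restrain glucose uptake. TXNIP had 32.9, 19.9 and 24.4 FPKM in HCC827/GR and 37.2 and 31.7 FPKM in HCC827, a log2 fold change of -0.43 (adjusted p = 0.312, limma). ARRDC4, whose E-box is printed above, had 1.28, 1.77 and 1.64 FPKM against 3.57 and 2.30 FPKM, a log2 fold change of -0.60 (adjusted p = 0.120, limma). Neither passed the test, though the ARRDC4 values did not overlap between the lines.

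Across the network factors, the MLX branch, the corepressor subunits that the MXD proteins and MNT recruit, the coactivator subunits that MYC recruits and the enzymes that set the stability of MYC protein, 41 genes were tested. Of these 20 were above 0 and 21 below, with a median of -0.01, and limma called none. At an unadjusted p under 0.05 limma gave 4 higher and 3 lower of the 41, beside 13.4% and 13.8% of all entries, and Ballgown's model gave 5 at its unadjusted p and none after adjustment. The medians were -0.01 for 14 corepressor subunits, -0.05 for 8 coactivator subunits and 0.05 for 12 stability genes.

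Genes known to be raised by MYC had a median change near 0 as a group. In the lists for ribosome biogenesis, metabolism, translation and chaperones, and the cell cycle, 76 genes were tested, of which 41 were above 0 and 35 below, with a median log2 fold change of 0.03. Over all entries tested 50.2% were above 0 and 49.8% below. At an adjusted p under 0.05, 2 were higher (2.63%) and 2 lower (2.63%), beside 5.26% and 5.71% of all entries. At an unadjusted p under 0.05, 3 were higher and 10 lower, beside 13.4% and 13.8% of all entries. The groups did not overlap in 12 of the 76 with HCC827/GR higher and 16 with it lower, beside 22.8% and 23.4% of all entries. Ballgown's model, a linear model with a library-size covariate and no pooled spread, called none of these genes and 15 entries in the whole table at the same threshold. Of 63 of these genes with a promoter sequence, 23 (36.5%) held CACGTG, beside 9.91% of the measured protein-coding genes.

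**Figure D5:**
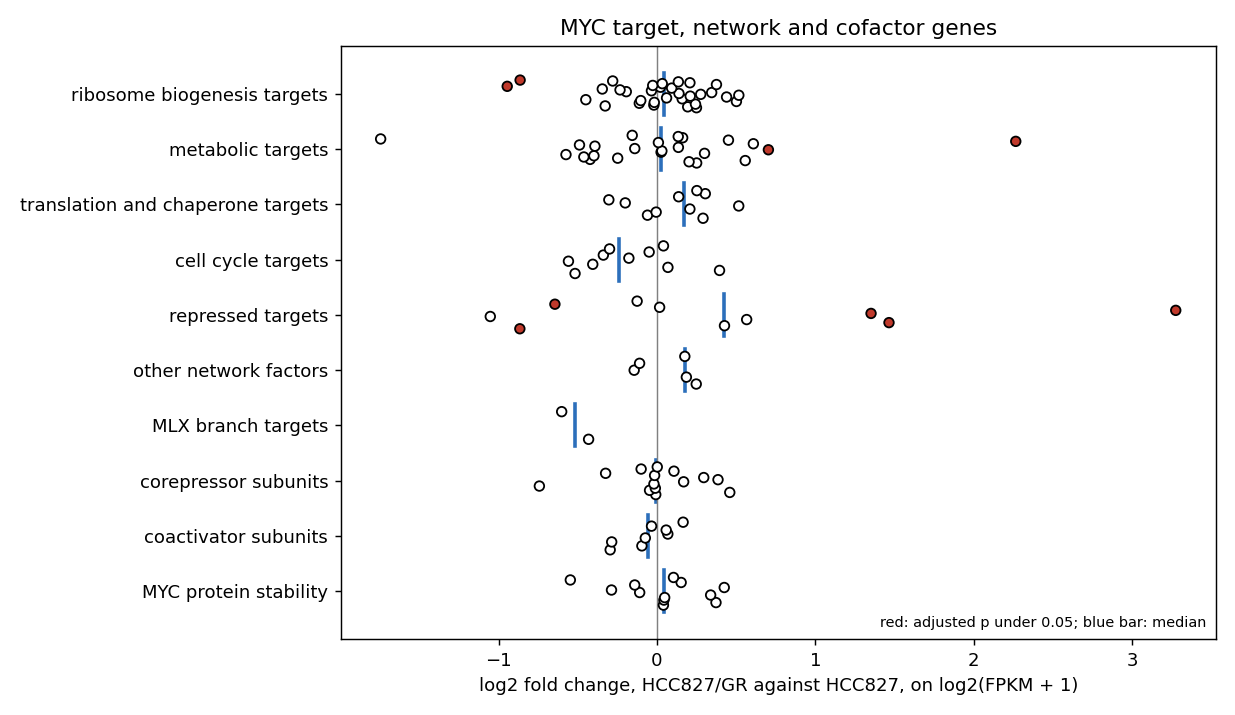
Log2 fold change (HCC827/GR minus HCC827) of each tested gene in the lists of MYC targets and network factors; each point is a gene, filled where the adjusted p was under 0.05, and the bar is the median of the list. The medians of the activated lists lay between -0.24 and 0.17; CEBPA, listed at 0 in HCC827, is not drawn.

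Of 32 ribosome biogenesis genes 18 were above 0 and 14 below, with a median of 0.05, and 2 (6.25%) were called, both lower, close to the 5.71% of all entries. The median was -0.12 without HCC827 replicate 2 and 0.22 without HCC827 replicate 3. LAS1L, needed to process ribosomal RNA of the large subunit, had 3.39, 3.69 and 3.98 FPKM in HCC827/GR and 7.31 and 8.78 FPKM in HCC827, and fell by 0.94 on the log2 scale (SE 0.12, adjusted p = 0.0155, limma). PA2G4, a nucleolar growth regulator, had 9.72, 9.61 and 10.3 FPKM against 17.3 and 20.3 FPKM and fell by 0.86 (adjusted p = 0.0148, limma). The PA2G4 entry joins transcripts of 2 annotated genes, so its reads cannot be credited to PA2G4 alone. LAS1L lost its call in 4 of 5 cases with 1 library left out and PA2G4 in 3.

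Of 24 metabolic genes 2 (8.33%) were called, both higher, beside 5.26% of all entries, and the median was 0.03. At an unadjusted p under 0.05, 3 were higher and 5 lower, beside 13.4% and 13.8% of all entries. The lowest was UNG, a DNA repair enzyme named after its values were seen, with a log2 fold change of -1.74 that did not pass (SE 0.48, adjusted p = 0.0938, limma). SLC7A5, the large neutral amino acid transporter, had 754, 749 and 689 FPKM in HCC827/GR and 241 and 94.8 FPKM in HCC827, and rose by 2.26 on the log2 scale (SE 0.41, adjusted p = 0.0355, limma). PPAT, the first enzyme of purine synthesis, had 10.7, 12.4 and 13.1 FPKM against 6.67 and 7.37 FPKM and rose by 0.70 (adjusted p = 0.0319, limma). SLC7A5 lost its call without any 1 of the HCC827/GR libraries and PPAT in all 5 cases with 1 library left out. ODC1, the rate-limiting enzyme of polyamine synthesis and a classic MYC target, had 27.3, 27.8 and 50.3 FPKM against 21.9 and 36.1 FPKM and did not pass (log2 fold change 0.25, adjusted p = 0.714, limma).

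Limma called none of the 10 translation and chaperone genes, with a median of 0.17, and none of the 10 cell cycle genes, with a median of -0.24. At an unadjusted p under 0.05, 1 of the former and 2 of the latter were lower and none was higher, beside 13.8% and 13.4% of all entries, and Ballgown's model gave 1 in each list at its unadjusted p. Without HCC827 replicate 2 the medians were -0.04 and -0.42, and without HCC827 replicate 3 they were 0.28 and -0.06. CDK4, the cyclin-dependent kinase whose E-box is printed above, was among the 10 cell cycle genes and did not pass (log2 fold change -0.52, adjusted p = 0.136, limma). The parental libraries differed from each other in these targets. Centred on each gene's mean over the 5 libraries, the median of the 76 activated targets was -0.18 in HCC827 replicate 2 and 0.16 in HCC827 replicate 3, while the HCC827/GR libraries had -0.06, -0.05 and 0.13. The HCC827/GR libraries thus lay between the parental ones, and the median fold change of the 76 was -0.16 without HCC827 replicate 2 and 0.22 without HCC827 replicate 3. MYC was likewise lower in HCC827 replicate 2 (4.34 FPKM) than in replicate 3 (6.05 FPKM).

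Of 11 tested genes that MYC is known to repress, 4 were called higher (36.4%) and 2 lower (18.2%), beside 5.26% and 5.71% of all entries, with a median of 0.43. Like the other lists, this list was chosen with earlier results of these data known, so its shares are a description only. THBS1, an extracellular inhibitor of blood vessel growth, had 391, 267 and 425 FPKM in HCC827/GR and 33.0 and 38.6 FPKM in HCC827, and rose by 3.27 on the log2 scale (SE 0.24, adjusted p = 0.00521, limma). CDKN1C, an inhibitor of cyclin-dependent kinases, had 3.75, 3.54 and 2.004 FPKM against 0.661 and 0.276 FPKM and rose by 1.46 (adjusted p = 0.0341, limma). NDRG2 had 2.92, 1.63 and 1.53 FPKM against 0.149 and 0.179 FPKM and rose by 1.35 (adjusted p = 0.0319, limma). CEBPA, a differentiation factor, had 0.720, 1.13 and 0.693 FPKM in HCC827/GR, while both parental libraries listed it at 0 (adjusted p = 0.0424, limma).

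The repressed genes that were lower were CDKN1A and ITGA6. CDKN1A, which encodes the p21 cell cycle inhibitor, had 0.461, 0.556 and 0.834 FPKM against 1.87 and 2.0003 FPKM and fell by 0.87 (adjusted p = 0.0308, limma). ITGA6, an integrin subunit, had 23.2, 24.9 and 29.4 FPKM against 39.2 and 42.2 FPKM and fell by 0.64 (adjusted p = 0.0482, limma). The call of THBS1 was kept whichever library was left out, while CDKN1C, NDRG2, CDKN1A and ITGA6 each lost theirs in 4 of 5 cases and CEBPA in all 5. The median of this list was -0.17 without HCC827 replicate 3 and 0.85 without HCC827 replicate 2, so the list has no settled direction. Ballgown's model gave 5 of its 11 genes at an unadjusted p under 0.05, a threshold for which the share of all entries is not given here. At an adjusted p under 0.05 it called none of them, but only 15 of all 16189 entries passed there.

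Some genes followed the members closely over the 5 libraries, measured as the largest difference between the profiles of log2(FPKM + 1) after centring each on its mean. For MYC these were NDUFS6 (0.0581), CCNE1 (0.0763), POMGNT1 (0.0771), MRPL40 (0.0787) and AP1M1 (0.0833), and 320 entries lay within 0.2. For PVT1 they were IL17RE, APPL2, MBIP, SULT1A3 and RAB1B, at 0.0269 to 0.0441, with 1502 entries within 0.2. For AC084116.4 they were ESRP1 (0.161), KRT16P1 (0.166), AC009495.1 (0.218), SEC61G (0.226) and FAAH2 (0.232), and only 2 entries lay within 0.2. With 5 libraries of 2 lines, any gene with a similar difference between the lines comes out as alike on this measure.

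Markers of the cell of origin moved with the comparison. The summed level of EPCAM, KRT8, KRT18, KRT19, CDH1 and NKX2-1, all 6 of which were found, was 443.1 to 573.4 FPKM in HCC827/GR and 1067.8 to 1186.4 FPKM in HCC827. EPCAM alone had 7.32, 10.8 and 8.53 FPKM against 86.9 and 72.6 FPKM. The 4 leukocyte markers found summed to at most 0.378 FPKM in any library. The 5 fibroblast markers summed to 2.48 to 2.76 FPKM in HCC827/GR and 3.19 to 3.28 FPKM in HCC827. The 4 endothelial markers summed to 0.0672 to 0.108 FPKM and 3.38 to 4.44 FPKM, nearly all of the latter from PECAM1, which was at 0 in every HCC827/GR library. The part of these markers in the results above was not tested. Protein-coding genes held 68.3% to 80.6% of the FPKM of a library, and 8896 to 9803 entries were at 0.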

How the data were processed

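RNA from HCC827/GR (n = 3) and HCC827 (n = 2) was sequenced. The authors deposited FPKM values, made per the labels and methods with cutadapt, Bowtie2, TopHat2, StringTie and Ballgown, with FastQC for quality. Versions are not given in the sources used here. The processing notes list hg18. The labels describe a small-RNA library read from one end, whereas the methods describe a library of rRNA-depleted RNA read from both ends. Which of these made the FPKM values is not known, and it bears on every level given. One further FPKM column (1 in all) matched no sample and was left out. No file coordinates were used: positions came from GENCODE release 29 on GRCh38, through 135164 of 135299 Ensembl transcript identifiers.

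The 16189 entries averaging 0.5 FPKM or more were put on a log2(FPKM + 1) scale. The lines were then compared by a two-sided moderated linear model (limma 3.58.1 with a mean-variance trend, R 4.3.3). P-values were adjusted by Benjamini-Hochberg over all entries tested, and a call was an adjusted p under 0.05. A second count took entries past a 2-fold difference with an unadjusted p under 0.05, which gave 480 higher (2.96%) and 643 lower (3.97%). FPKM keeps no depth, so no counting error was given. Tables were joined and plotted with Python 3.11.15, pandas 2.3.3, numpy 2.4.6 and matplotlib 3.10.9, and the fit was tested on simulated data.

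The members and the lists were chosen with earlier results of these data known. Besides the members, named genes were up to 4 called entries per direction in each list and among the neighbours of MYC, by size of change, all other network factors and MLX branch targets, TXNIP and ODC1, and the 5 genes closest in profile to MYC, PVT1 and AC084116.4. FAM84B was left out of counts of the neighbours, and MXD1 out of a sum, as alternatives chosen after seeing the data. Genes outside this rule are named as chosen after their values were seen, CDK4 for its promoter among them. As alternatives, the pseudocount was lowered to 0.1, the filter was dropped or raised to 1 FPKM, and other scalings, no trend, Ballgown's model, the replicate number as a block, summed entries and each library left out in turn were tried.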

Additional observations from a re-analysis of the deposited data

How the results depend on the processing

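The count of 1775 entries called over the whole table was 15 under Ballgown's model, 0 with the replicate number as a block, and 489 to 962 with 1 library left out. The 10 calls among the lists of MYC targets became 3 with no filter on low values, 0 under Ballgown's model and 0 with the block, and 2 to 6 with 1 library left out. The 13 calls among the neighbours of MYC became 0 under Ballgown's model, 0 with the block, and 5 to 8 with 1 library left out. The network and cofactor lists, with 0 calls, had 0 to 1 with 1 library left out. The members whose groups did not overlap numbered 5 of 9, beside 46.3% of all entries tested. They numbered 6 with entries of a symbol summed and 5 to 7 with 1 library left out. Fewer libraries make such a separation more common, and the share over all entries is not given for those fits. The count is therefore no result about the members. This count was not run under quantile normalization. The replicate numbers are not known to pair the samples. Deviations of same-numbered libraries from the mean of their line correlated at 0.033 (replicate 2) and 0.015 (replicate 3). With 2 HCC827 libraries, the parental deviations are mirror images of each other, so these correlations cannot exclude pairing. The block leaves a single residual degree of freedom. The cause of these changes was not tested. A fit that leaves out a library also has fewer samples, which cannot be told apart from which library was dropped. Of the members, PVT1 reached -0.47 with a pseudocount of 0.1 and -0.48 with entries of a symbol summed. Changes of 3 genes that did not pass the test turned their sign. MLX had -0.42 to 0.13 and MLXIP -0.34 to 0.12 with 1 library left out, and MLXIP had 0.18 under Ballgown's model. ODC1 had -0.10 to 0.60 with 1 library left out and -0.18 under Ballgown's model. Without replicates of known origin and without read counts, small differences such as that of MYC cannot be resolved further here.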
